A study of Oryza sativa with 8 samples.

Results

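Calcium-dependent and CBL-interacting kinases were taken as the genes whose deposited description names a calcium-dependent protein kinase (CDPK), a CBL-interacting protein kinase (CIPK) or a calcium/calmodulin-dependent kinase (CCaMK). The rule, which uses only words of the description, found 64 of the 37869 rice genes in the table. By description, 33 belonged to the CDPK group, 26 to the CIPK group, 4 to the CCaMK group and 1 was a CDPK-related kinase. The CDPK count holds 2 genes described as CDPK substrate proteins, which are targets and not kinases, and the CCaMK count holds 1 receptor-like kinase regulated by calcium and calmodulin.

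RNA was taken from roots of rice, cultivar Ilmi, at an age of 2 weeks and without stress. ROX plants overexpress *OsERF48*, an AP2/ERF transcription factor of drought responses, from the root-specific *RCc3* promoter in 2 independent lines, and were compared with nontransgenic (NT) plants. FPKM values, meaning fragments normalised for transcript length and for library size, were available for 4 ROX and 4 NT libraries. The columns carried names of 2 styles, Root libraries and Set libraries, with 2 ROX and 2 NT columns in each style. No column named the line or replicate, so the lines were pooled, and for Set libraries the study, not the column name, gave promoter and tissue.

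Plant cells turn a rise in cytosolic calcium into protein phosphorylation through these kinases. A CDPK senses calcium by itself, because a calmodulin-like domain with EF hands is fused to its kinase domain. A CIPK has no calcium sensor of its own and is switched on, and brought to a membrane, by a calcineurin B-like protein (CBL), and the best known targets are ion channels and transporters of the root. CCaMK binds both calcium and calmodulin and reads the nuclear calcium oscillations of root symbiosis.

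*OsERF48* itself had 464 and 470 FPKM in Root ROX libraries, against 86.6 and 86.2 FPKM in Root NT libraries. It had 816 and 612 FPKM in Set ROX libraries, against 65.9 and 59.3 FPKM in Set NT libraries. The transgene label therefore matched the expression of the gene in each of the 8 libraries (log2 fold change 2.95, SE 0.21, limma adjusted p = 0.000634, exact permutation p = 0.0286, the smallest that 4 against 4 libraries allow). The permutation ran over all 8 libraries without regard to library set, while the limma fit held the set as a covariate. The root gene *RCc3* had 152 to 161 FPKM in Root ROX and 307 to 321 FPKM in Root NT libraries, and 1540 to 1581 FPKM in Set ROX and 1236 to 1608 FPKM in Set NT libraries. Depth, recovered from the steps between low values, was about 37600000 to 43800000 fragments in Root and 46200000 to 49500000 fragments in Set libraries. A list of 24 genes of green leaf summed to 35.9 and 37.6 FPKM in Root ROX against 61.4 and 58.2 FPKM in Root NT libraries, and to 18.1 and 17.3 FPKM in Set ROX against 26.6 and 24.4 FPKM in Set NT libraries. These leaf genes were thus lower in ROX without overlap in both sets, and their part in the results below was not tested. Libraries of the same set correlated at 0.962 to 0.997 over log2(FPKM + 1), and libraries of different sets at 0.828 to 0.888. Within a pair, the variance was 1.55 (ROX) and 1.15 (NT) times that of counting in the Root set, and 4.66 (ROX) and 3.38 (NT) times in the Set set. The methods describe 2 technical replicates of each biological sample. Which libraries are technical replicates is not given, so that p-values may measure technical spread only. Line, growth and sequencing cannot be told apart between the Root and Set libraries.

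Expression of the kinase genes was broad and uneven. Of the 64 genes, 48 reached a mean of 0.5 FPKM and were tested, and 33 reached 10 FPKM. The CDPK group held 65.3% of the summed FPKM of the 64 genes, the CIPK group 24.8% and the CCaMK group 9.33%. The summed level of all 64 was 1397 and 1365 FPKM in Root ROX against 1268 and 1267 FPKM in Root NT libraries. In the Set libraries it was 1119 and 1168 FPKM in ROX against 1176 and 1180 FPKM in NT. ROX was thus above NT in the Root libraries and below it in the Set libraries, and no test was made of a sum.

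**Figure D1:**
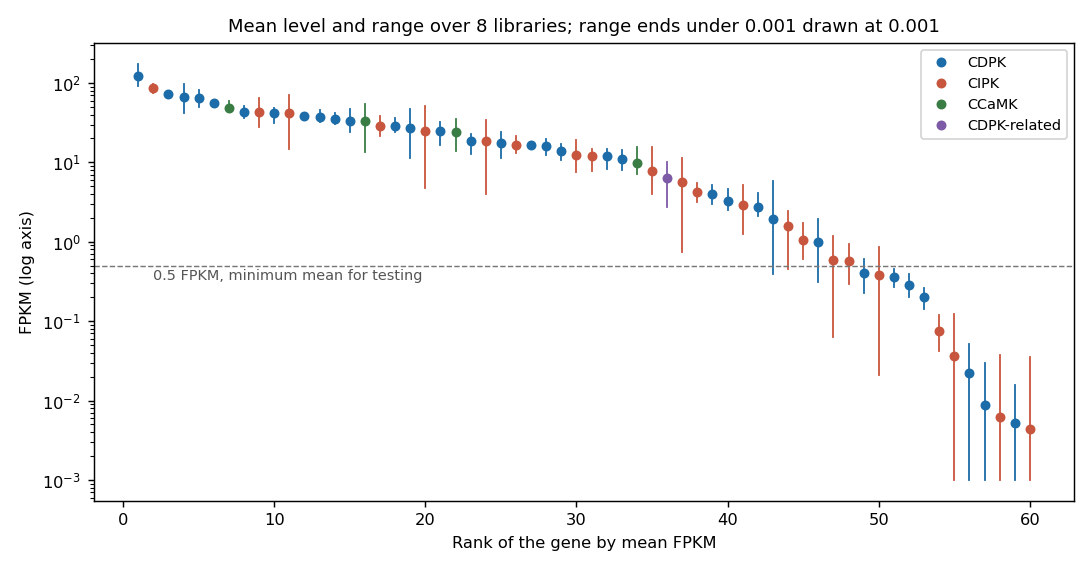
FPKM (log axis) of the 60 genes with a value above 0, ordered by their mean over 8 libraries. Points are means, lines run from the lowest to the highest library and colours give the group. Levels span from 122 FPKM at rank 1 to under 0.5 FPKM from rank 49 on, and CDPK and CIPK genes occur along the whole range.

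Os04g0584600, a CDPK gene with a mean of 122 FPKM, was the highest, followed by the CIPK1-like Os01g0292200 with 85.3 FPKM. Their ranges over the 8 libraries, 91.2 to 176 FPKM and 75.7 to 96.7 FPKM, overlapped at the ends. Next came Os03g0128700 (CDPK isoform 11) with 72.3 FPKM, Os07g0409900 with 66.6 FPKM and Os06g0127300 with 64.5 FPKM, all CDPK genes whose ranges overlapped each other. Among CIPK genes, the CIPK9-like Os03g0126800 had 42.9 FPKM and the CIPK14-like Os12g0113500 had 41.9 FPKM. In Arabidopsis, CIPK9 is known for responses to low potassium. The CDPK-related kinase Os07g0619800 had a mean of 6.39 FPKM. At the low end, 16 genes stayed under 0.5 FPKM, 9 of them of the CIPK group, and 4 CIPK genes (Os08g0496750, Os03g0604401, Os05g0454800 and Os05g0476466) were listed at 0 in every library.

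The spread over the libraries differed between the kinase genes. The highest library was under 1.5 times the lowest for 10 of the 48 tested genes and under 2 times for 27. Shares of all genes at these limits, and at the limit of 5 times below, were not counted. Steadiest was Os07g0515100 (CDPK isoform 2), with 36.2 to 40.9 FPKM. In contrast, 7 genes varied by more than 5 times, among them the CIPK2-like Os05g0332300, whose split was between the library sets. It had 0.945 and 0.903 FPKM in Root ROX and 0.74 and 1.04 FPKM in Root NT libraries, but 11.3 and 10.9 FPKM in Set ROX and 8.87 and 11.0 FPKM in Set NT libraries. Both genotypes showed this gap. In NT libraries alone, 8 of the 48 genes (16.7%) were at least 2-fold higher in Set than in Root and 4 (8.33%) at least 2-fold higher in Root than in Set, against 19.9% and 10.1% of all 26136 genes tested.

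ROX was next compared with NT over all 8 libraries in a fit that held library set as a covariate, to ask which calcium-decoding kinases follow *OsERF48*. At a limma adjusted p under 0.05, taken over all genes tested, 1 of the 48 genes was higher in ROX and 2 were lower. Over all genes, 2.74% were called higher and 4.34% lower. At the second rule, a 2-fold change and an unadjusted p under 0.05, 1 gene was higher and 0 were lower, against 1.31% and 0.314% of all genes. The counts of the kinase genes thus lay near the background. With median ratio scaling, 828 of all 26136 genes tested were called higher and 780 lower. Of the 48 kinase genes, 2 were higher and 2 lower. The higher ones were then Os01g0832300 and Os04g0560600 in place of Os08g0540400, and the lower ones were the same. The share of higher calls among all genes called was 51.5%, against 38.7% as deposited. Without adjustment, 8 genes had a higher and 5 a lower level at p under 0.05 by limma, together 27.1% of the 48, against 27.9% of all genes in either direction. The median log2 fold change was 0.064 for the 48 genes and -0.048 for all genes, and 44 of the 48 stayed within 0.5 of 0 on the log2 scale. All genes but the lowest 5% and the highest 5% lay between -0.41 and 0.50, so small changes were not particular to the kinase genes.

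**Figure D2:**
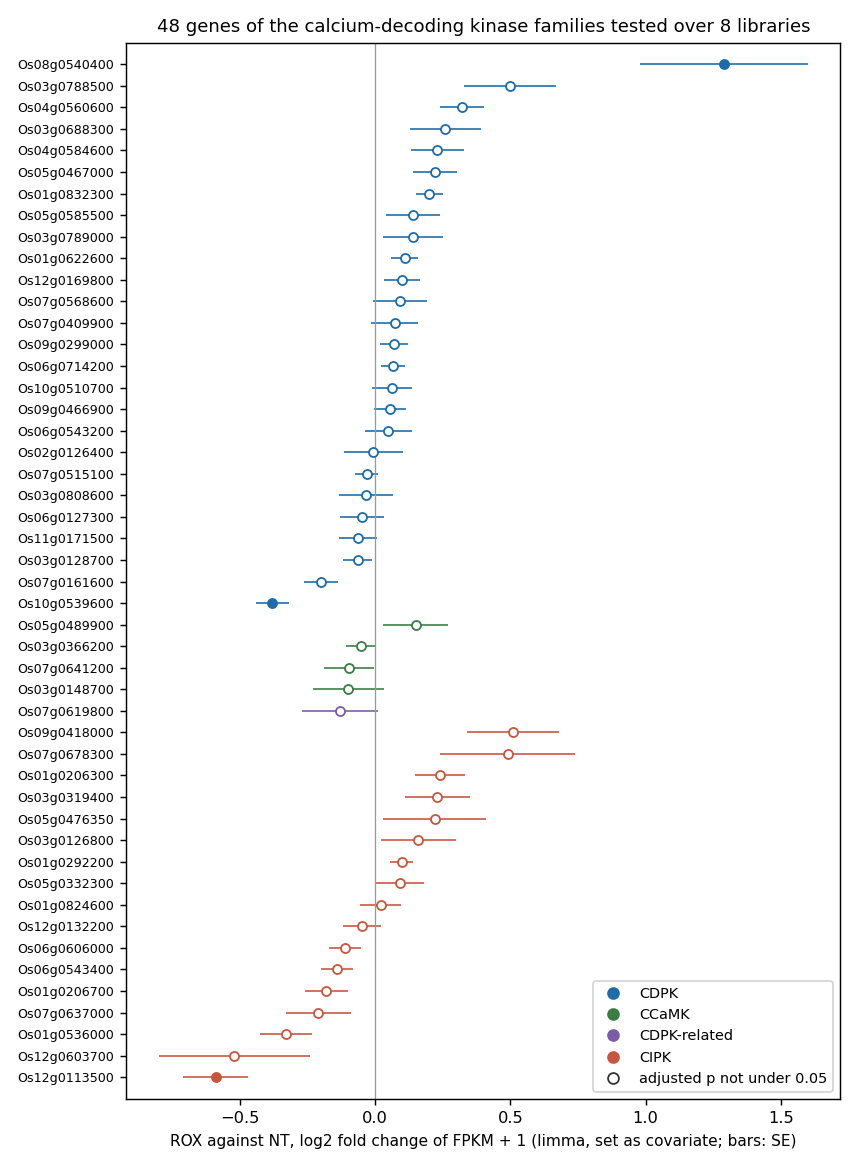
Log2 fold change of FPKM + 1, ROX against NT, for the 48 genes tested over 8 libraries (limma, library set as covariate). Points are estimates, bars are SE and filled points have an adjusted p under 0.05. The 3 filled points are Os08g0540400 at 1.29, Os10g0539600 at -0.38 and Os12g0113500 at -0.59.

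Os08g0540400 (*OsCDPK21*, known in rice for a part in abscisic acid and salt responses) was the gene called higher. It lies on chromosome 8 at 27055091 to 27059334 of IRGSP-1.0, has 1 transcript of 2026 bases and overlaps no other gene of the table. Root ROX libraries had 5.69 and 5.79 FPKM, against 0.604 and 0.525 FPKM in Root NT libraries. Set ROX libraries had 1.05 and 1.05 FPKM, against 0.397 and 0.56 FPKM in Set NT libraries. All 4 ROX libraries lay above all 4 NT libraries, which held for no other kinase gene and for 2.07% of all genes tested, while 0 kinase genes had all ROX below all NT libraries, against 3.30% of all genes. Mean FPKM was 10.2 times as high in ROX as in NT among Root libraries and 2.19 times among Set libraries. On the log2(FPKM + 1) scale, which understates changes of low genes, the change was 1.29 (SE 0.31, limma adjusted p = 0.0494). The gene is low, with about 35 to 463 fragments per library, and the study had listed it as a candidate from these same samples, so its call is no independent evidence. Its limma adjusted p was 0.069 with no filter on low values, 0.053 with median ratio scaling and 0.0507 without a variance trend. The call was lost without any Root library (adjusted p = 0.14 without Root ROX 1, 0.145 without Root ROX 2, 0.149 without Root NT 1 and 0.145 without Root NT 2). It was also lost without Set ROX 2 (adjusted p = 0.0557) or without Set NT 1 (adjusted p = 0.0658, limma).

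Os12g0113500, a CIPK14-like gene annotated to defence signalling induced by microbial patterns, was lower in ROX. Root ROX libraries had 56.3 and 52.2 FPKM, against 69.3 and 70.1 FPKM in Root NT libraries. Set ROX libraries had 14.6 and 16.2 FPKM, against 31.7 and 24.7 FPKM in Set NT libraries. ROX and NT did not overlap within either set, while the level in NT was 0.405 times as high in Set as in Root libraries. The change was -0.59 on the log2 scale (SE 0.12, limma adjusted p = 0.0303). It lies on chromosome 12 at 679079 to 682143, near the end of the short arm, a segment of the genome that is duplicated on chromosome 11. Os11g0113700, the duplicate there, which the rule did not find, had 80.9 and 75.8 FPKM in Root ROX against 103 and 104 FPKM in Root NT libraries. In the Set libraries it had 24.5 and 24.9 FPKM in ROX against 51.9 and 41.2 FPKM in NT (log2 fold change -0.64, SE 0.11, limma adjusted p = 0.0229). How fragments that match both copies were assigned is not given, so the values of this pair are uncertain. The call of Os12g0113500 was kept only without Set NT 1 (adjusted p = 0.0345) and lost without any other library, at limma adjusted p-values of 0.0523 without Set ROX 1 to 0.0861 without Root ROX 2.

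Os10g0539600, described as similar to CDPK 3, was the other gene called lower. It had 36.2 and 35.5 FPKM in Root ROX against 46.4 and 44.9 FPKM in Root NT libraries, and 11.2 and 11.6 FPKM in Set ROX against 16.7 and 14.3 FPKM in Set NT libraries. Again ROX and NT did not overlap within either set, and the fall was of like size in both, at -0.34 (SE 0.042) in Root and -0.41 (SE 0.11) in Set libraries. Over both sets it was -0.38 (SE 0.060, limma adjusted p = 0.0157). The gene lies on chromosome 10 at 21027467 to 21032216 and overlaps Os10g0539650. The libraries were strand-specific, but whether strand was used in counting is not given. Its call was lost without Root ROX 1 (adjusted p = 0.0558), Root ROX 2 (0.0603), Root NT 1 (0.0682) or Root NT 2 (0.0584), and was kept without any Set library. In bulk roots, fewer cells of a type and less RNA per cell cannot be told apart. When the 2 libraries of each pair were averaged first, as fits technical replicates, 0 of the 48 genes were called in either direction by limma (3 at an unadjusted p under 0.05, against 5.49% of all genes), and *OsERF48* had an adjusted p of 0.536.

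**Figure D3:**
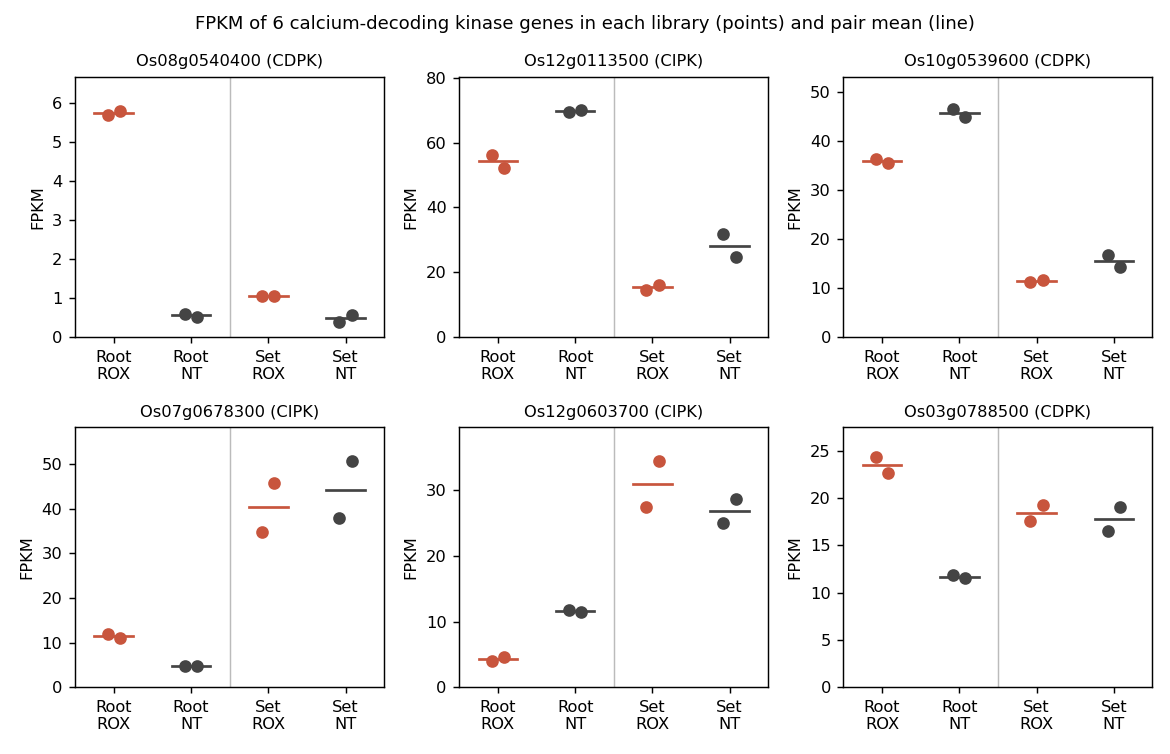
FPKM of 6 genes in each library (points) with the pair mean (line), by library set and genotype. The upper genes are those called over both sets, and ROX lies on the same side of NT in both sets. For the lower genes, ROX and NT separate in the Root libraries and overlap in the Set libraries, as for Os07g0678300 with a pair mean of 11.5 FPKM in Root ROX and 4.81 FPKM in Root NT libraries.

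Within the sets, 6 of the 48 genes had both ROX libraries above both NT libraries in Root and in Set, against 7.36% of all genes, and 4 had both below, against 15.4%. Those above were Os08g0540400, the CDPK genes Os01g0832300, Os04g0560600, Os05g0467000 and Os06g0714200, and the CIPK1-like Os01g0292200. Those below were Os10g0539600, Os12g0113500, the CDPK gene Os07g0161600 and the CIPK11-like Os06g0543400. Os06g0543400 had only 0.0623 to 0.208 FPKM in Root libraries, where it was not tested. It reached the minimum of 0.5 FPKM only through its Set libraries, so that its separation in Root carries no weight. Os04g0560600 had 2.93 and 2.92 FPKM in Root ROX against 2.53 and 2.5 FPKM in Root NT libraries, and 4.55 and 4.64 FPKM in Set ROX against 3.03 and 3.01 FPKM in Set NT libraries. Its log2 fold change of 0.32 (SE 0.081) missed the threshold at a limma adjusted p of 0.0595. In opposite directions, 7 genes were above NT in Root and below NT in Set libraries without overlap, against 6.99% of all genes, and 1 was the other way round, against 7.99%.

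Root libraries alone gave many small changes. Of 47 genes tested, 20 were higher in ROX and 9 were lower at a limma adjusted p under 0.05, against 20.8% and 32.0% of all genes. Of 26 CDPK genes, 14 were higher and 3 lower, and of 16 CIPK genes, 5 were higher and 4 lower. The median log2 fold change was 0.099 for these 47 genes and -0.076 for all genes. At 2-fold on the log2(FPKM + 1) scale and p under 0.05, 2 genes were higher and 1 was lower, against 4.23% and 0.976% of all genes. By the ratio of mean FPKM, 4 genes were at least 2-fold higher and 1 lower with that p, against 6.20% and 3.29% of all genes. The added genes were the low Os05g0476350, at 2.68 times, and the CIPK18-like Os01g0206300, at 2.11 times. Os01g0206300 had a mean of 0.323 FPKM in Root NT libraries and reached the minimum of 0.5 FPKM only through its ROX libraries. It is also among the 20 genes called higher, and its calls carry no weight. On the log2 scale, 39 of the 47 stayed within 0.5 of 0, while all genes but the lowest 5% and the highest 5% lay between -0.61 and 0.89. With median ratio scaling, 23 of the 47 were higher and 7 lower, against 6469 and 5893 of all 25090 genes tested. The share of higher calls among all genes called was then 52.3%, against 39.4% as deposited. The highest of all, Os04g0584600, had 176 and 175 FPKM in ROX against 127 and 126 FPKM in NT (log2 fold change 0.47, SE 0.033, limma adjusted p = 3.65e-05). Os03g0128700 (CDPK isoform 11), next among CDPK genes, had 76.6 and 74.0 FPKM in ROX and 73.9 and 74.7 FPKM in NT, which overlapped, and Os07g0409900 had 96.7 and 93.4 FPKM in ROX against 81.3 and 77.7 FPKM in NT, which did not. Beside Os08g0540400 (2.11, SE 0.082, limma adjusted p = 2.21e-06), the CIPK29-like Os07g0678300 passed 2-fold.

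Os07g0678300 had 12.0 and 11.1 FPKM in Root ROX against 4.9 and 4.71 FPKM in Root NT libraries (log2 fold change 1.11, SE 0.070, limma adjusted p = 2.16e-05). Its Set libraries were higher and overlapped, with 34.9 and 45.7 FPKM in ROX and 38.0 and 50.6 FPKM in NT. The CIPK4-like Os12g0603700 moved the other way in Root, with 3.95 and 4.69 FPKM in ROX against 11.7 and 11.4 FPKM in NT (log2 fold change -1.24, SE 0.083, limma adjusted p = 2.95e-05). In its Set libraries, ROX had 27.4 and 34.4 FPKM and NT had 25 and 28.7 FPKM, which overlapped. The CDPK2-like Os03g0788500 had 24.3 and 22.6 FPKM in Root ROX against 11.9 and 11.5 FPKM in Root NT libraries (0.94, SE 0.057, limma adjusted p = 1.84e-05), and 17.6 and 19.3 FPKM in Set ROX against 16.5 and 19.0 FPKM in Set NT libraries. For each of these genes, genotypes separated in the Root libraries and overlapped in the Set libraries. Set column names give 1 ROX and 1 NT library the same number, and within both numbers ROX was below NT for Os07g0678300 and above NT for Os12g0603700 and Os03g0788500. Whether a number marks a shared batch is not given. With this number as a block, the Set changes were -0.13 (SE 0.083, limma adjusted p = 0.506), 0.19 (SE 0.089, 0.366) and 0.053 (SE 0.091, 0.831).

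Smaller changes in Root libraries were found in further CIPK genes. The CIPK9-like Os03g0126800 had 65.5 and 63.8 FPKM in Root ROX against 42.7 and 46.9 FPKM in Root NT libraries (0.52, SE 0.053, limma adjusted p = 0.000217). Os01g0536000, described as similar to CIPK24 (SALT OVERLY SENSITIVE 2, which activates a sodium exporter in Arabidopsis), had 15.0 and 14.3 FPKM in Root ROX against 21.5 and 21.5 FPKM in Root NT libraries (-0.52, SE 0.051, limma adjusted p = 0.000185). The CIPK16-like Os09g0418000 was higher (0.89, SE 0.089) and so was the CIPK28-like Os05g0476350 (0.67, SE 0.10), which had only 0.458 to 1.56 FPKM in these libraries. The CDPK-related Os07g0619800 was lower (-0.42, SE 0.10, limma adjusted p = 0.0112), a call that was lost without Root NT 2 (adjusted p = 0.0629).

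Set libraries alone gave no call. Of 48 genes tested, 0 were higher and 0 lower at a limma adjusted p under 0.05, against 0.807% and 0.432% of all genes, also when limma was run without a variance trend. At an unadjusted p under 0.05, 3 were higher and 4 lower, together 14.6% of the 48, against 15.8% of all genes in either direction. On the log2(FPKM + 1) scale 0 passed 2-fold with that p, against 0.922% (higher) and 0.597% (lower) of all genes. By the ratio of mean FPKM, 1 gene, Os08g0540400, was at least 2-fold higher and 0 were lower, against 1.54% and 1.71% of all genes. The mean of Os08g0540400 in Set NT libraries was 0.478 FPKM. Within this set it reached the minimum of 0.5 FPKM only through its ROX libraries, so that this count carries no weight. The largest estimates were -0.83 (SE 0.14, limma adjusted p = 0.0851) for Os12g0113500 and -0.49 (SE 0.098, limma adjusted p = 0.113) for the CIPK21-like Os07g0637000. Os07g0637000 had 7.7 and 8.62 FPKM in Set ROX against 11.8 and 11.9 FPKM in Set NT libraries. Among rises, Os03g0319400, a CIPK3-like gene annotated to cold tolerance, had 5.15 and 5.14 FPKM in Set ROX against 3.32 and 3.51 FPKM in Set NT libraries (0.48, SE 0.10, limma adjusted p = 0.124).

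**Figure D4:**
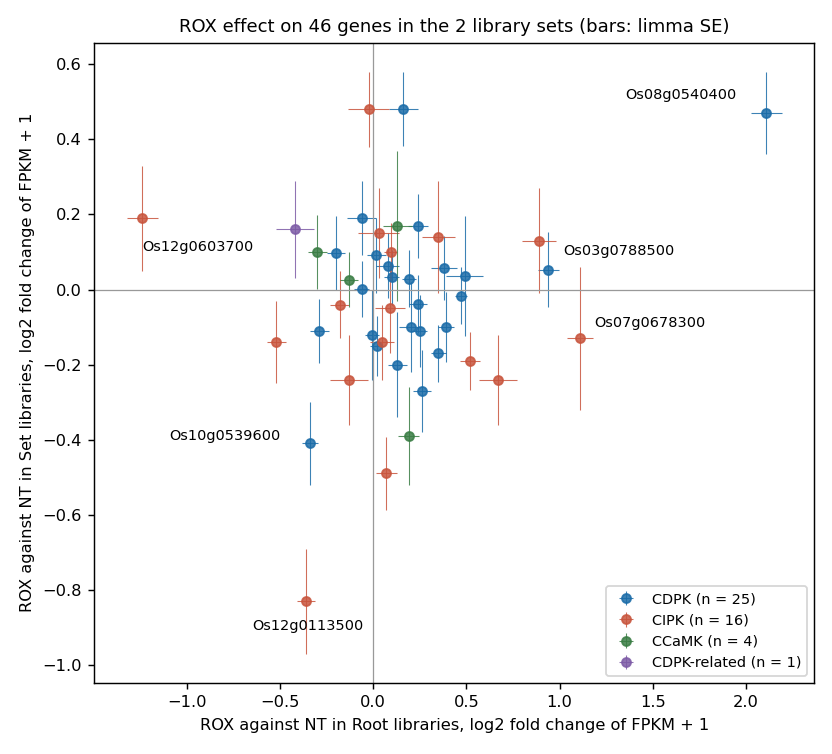
Log2 fold change of FPKM + 1, ROX against NT, in Root libraries (horizontal) and in Set libraries (vertical) for the 46 genes tested in both. Points are limma estimates, bars are SE and colours give the group. Os08g0540400 stands at 2.11 in Root and 0.47 in Set, Os07g0678300 at 1.11 and -0.13, and Os12g0603700 at -1.24 and 0.19.

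The difference of the ROX effect between the sets was tested directly with an interaction term. A difference above 0 means a log2 fold change that stood higher in Root than in Set, whichever effect was larger in size. At a limma adjusted p under 0.05, the difference was above 0 for 14 of 48 genes and below 0 for 3. Over all genes the shares were 10.7% and 10.8%. The genes above 0 include Os03g0789000, which reached the minimum of 0.5 FPKM only through its Root libraries, so that its difference carries no weight. At a 2-fold difference and an unadjusted p under 0.05, 2 genes were above 0 and 1 below, against 4.43% and 1.58% of all genes. The largest differences were 1.64 (SE 0.13, limma adjusted p = 0.000295) for Os08g0540400, -1.43 (SE 0.18, limma adjusted p = 0.00205) for Os12g0603700 and 1.24 (SE 0.22, limma adjusted p = 0.00934) for Os07g0678300. Of the genes called over both sets, Os10g0539600 had a difference of 0.071 (SE 0.11, limma adjusted p = 0.687) and Os12g0113500 one of 0.47 (SE 0.16, limma adjusted p = 0.0782). Without 1 of the Root libraries the count above 0 was 8 (Root ROX 1), 9 (Root ROX 2), 8 (Root NT 1) or 7 (Root NT 2). The count below 0 was 1 without any Root library, without Set ROX 2 or without Set NT 1. Of the genes with separated genotypes in opposite directions, Os02g0126400, similar to CPK1, had 32.7 and 32.5 FPKM in Root ROX against 28.0 and 26.3 FPKM in Root NT libraries, but 16.7 and 19.4 FPKM in Set ROX against 22.8 and 21 FPKM in Set NT libraries. The CIPK9-like Os03g0126800 was another, with 29.6 and 28.1 FPKM in Set ROX against 33.4 and 32.9 FPKM in Set NT libraries and a difference of the effects of 0.72 (SE 0.089, limma adjusted p = 0.00215).

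Over both sets, the 4 genes of the CCaMK group changed little, with log2 fold changes of -0.099 to 0.15. Os05g0489900, the CCaMK of the common symbiosis pathway, had 7.49 and 8.46 FPKM in Root ROX against 7.33 and 7.04 FPKM in Root NT libraries, and 10.1 and 15.5 FPKM in Set ROX against 11.3 and 10.7 FPKM in Set NT libraries. Its log2 fold change over both sets was 0.15 (SE 0.12, limma adjusted p = 0.432). Both genes described as similar to calcium/calmodulin-dependent kinase 1 stood higher, Os03g0366200 with a mean of 49 FPKM and Os07g0641200 with 24.4 FPKM. Os07g0641200 was lower in Root ROX, with 13.9 and 14.0 FPKM, than in Root NT libraries, with 17.0 and 17.6 FPKM (-0.30, SE 0.052, limma adjusted p = 0.00294). The receptor-like kinase Os03g0148700 had 54.1 and 49.4 FPKM in Root ROX against 46.4 and 44 FPKM in Root NT libraries (0.19, SE 0.055, limma adjusted p = 0.0236). In the Set libraries it had 13.4 and 16.2 FPKM in ROX against 21.3 and 18.1 FPKM in NT (-0.39, SE 0.13, limma adjusted p = 0.266). The Root call of Os03g0148700 was lost with quantile normalization (limma adjusted p = 0.0695) and without a variance trend (0.0691). Its genotypes thus separated in opposite directions, with a difference of the effects of 0.58 (SE 0.15, limma adjusted p = 0.0368) that was lost without any Root library (adjusted p = 0.0774 to 0.127), without Set ROX 1 (0.0652) or without Set NT 1 (0.088).

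Transcripts added detail for the 19 genes with more than 1 transcript. For Os12g0113500, the transcript of 2028 bases carried 72.9% and 82.4% of the gene's FPKM in Root ROX against 74.2% and 66.7% in Root NT libraries, and 83.3% and 80.0% in Set ROX against 72.3% and 78.4% in Set NT libraries. Shares of ROX and NT overlapped in the Root set and did not overlap in the Set libraries, where ROX was higher. For the CIPK2-like Os01g0824600, the share of the transcript of 2337 bases differed between the sets and not between genotypes, at 42.3% and 41.6% in Root ROX and 39.8% and 43.1% in Root NT libraries, but 69.7% and 59.5% in Set ROX and 61.8% and 67.3% in Set NT libraries. For the CDPK gene Os07g0161600, a transcript of only 565 bases carried 73.6% to 78.3% of the FPKM in every library. The FPKM of the gene thus rests mostly on this short model, which is described as a hypothetical conserved gene and not as a CDPK. FPKM is per length, so this share is not the share of fragments.

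Other genes of the pathway were read from lists made by description. Over all genes, 2.74% were called higher and 4.34% lower over both sets, and 27.9% had an unadjusted p under 0.05 by limma. Of 11 CBL calcium sensors tested, which switch on CIPKs, 0 were higher and 1 was lower over both sets, the CBL7-like Os03g0448500 (-0.26, SE 0.058, limma adjusted p = 0.0426). Of 31 potassium channels and transporters, a list by description that holds some known CIPK targets, 2 were higher and 0 lower. Os08g0206400, similar to potassium transporter 18, had 19.3 and 18.3 FPKM in Root ROX against 9.57 and 9.9 FPKM in Root NT libraries, and 7.78 and 8.06 FPKM in Set ROX against 4.81 and 4.88 FPKM in Set NT libraries (0.75, SE 0.072, limma adjusted p = 0.00226). The K+ channel Os03g0752300 was also higher (0.44, SE 0.079, limma adjusted p = 0.0227). Of 8 NADPH oxidases, some of which CDPKs phosphorylate, 0 were called by limma (2 at an unadjusted p under 0.05). In Root libraries alone 3 were higher and 1 lower, against 20.8% and 32.0% of all genes. Of 15 glutamate receptor-like channels 0 were called (4 unadjusted), and of 12 calcium pumps 0 were called (1 unadjusted). Over these lists the median log2 fold change ran from -0.13 for glutamate receptors to 0.26 for calmodulins, against -0.048 for all genes.

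The clearest change among these lists was in a calcium channel. Of 7 cyclic nucleotide-gated channels tested, 1 was higher and 0 were lower, against 2.74% and 4.34% of all genes. The higher one was Os08g0254600, similar to channel 14, which in Arabidopsis carries a calcium influx of root cells in response to auxin. It had 39.2 and 36.6 FPKM in Root ROX against 5.89 and 5.6 FPKM in Root NT libraries, and 31.1 and 32.9 FPKM in Set ROX against 3.34 and 2.18 FPKM in Set NT libraries. Its log2 fold change was 2.84 (SE 0.15, limma adjusted p = 0.00017), and it was called in the Set libraries alone as well (3.15, SE 0.17, limma adjusted p = 0.00355). Of 9 cation/proton exchangers, 1 was called higher and 0 lower, beside the same shares of all genes. It was Os05g0276100, which reached the minimum of 0.5 FPKM only through its ROX libraries, so that its call carries no weight. It had 1.8 and 1.98 FPKM in Root ROX against 0.00521 and 0 FPKM in Root NT libraries, and 0.26 and 0.407 FPKM in Set ROX against 0 in both Set NT libraries.

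Of 13 genes tested for calmodulin and calmodulin-like proteins, which bind calcium and then bind and regulate other proteins, 3 were higher and 0 lower. Over all genes, 2.74% were called higher and 4.34% lower. Os03g0319300, a calmodulin, had 301 and 314 FPKM in Root ROX against 139 and 135 FPKM in Root NT libraries, and 568 and 590 FPKM in Set ROX against 405 and 498 FPKM in Set NT libraries (0.77, SE 0.16, limma adjusted p = 0.0374). Os12g0603800, whose identifier follows that of the CIPK4-like Os12g0603700, had 8.54 and 8.46 FPKM in Root ROX against 4.78 and 4.49 FPKM in Root NT libraries, and 16.3 and 20.2 FPKM in Set ROX against 12.8 and 13.2 FPKM in Set NT libraries (0.60, SE 0.092, limma adjusted p = 0.014). Os08g0117400 changed by 0.26 (SE 0.054, limma adjusted p = 0.0356). It had 103 and 110 FPKM in Root ROX against 90.2 and 84.2 FPKM in Root NT libraries, and 149 and 137 FPKM in Set ROX against 120 and 123 FPKM in Set NT libraries. For all 3 genes, ROX and NT did not overlap within either set.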

How the data were processed

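Root RNA from ROX and NT rice was sequenced with strand-specific libraries, and the submitters' processing notes name the IRGSP-1.0 genome. The aligner and quantifier are not given in the sources used here. Gene tables and transcript tables of the whole series hold FPKM, computed by the authors from transcript length and library size. Genotype and library set were read from column names (aERF48 was taken as ROX and WT as NT), and 4 columns per table that matched no sample were not used. Starts were raised by 1, since the tables count from 0.

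Values were taken as log2(FPKM + 1) for genes with a mean of at least 0.5 FPKM and fitted with limma 3.58.1 (R 4.3.3, Python 3.11.15) with a variance trend. ROX was compared with NT with library set as covariate, within each set, and as a difference between sets. P-values were adjusted by the Benjamini-Hochberg method over all genes tested. The fit was also run on simulated data. Those libraries were drawn independently, with the same added spread in both sets. That run therefore cannot show how technical replicates or the unequal spread of the sets affect the p-values. Depth was recovered from low values, of which 92.9% to 94.3% were whole within 0.1 fragment.

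Named genes were those called over both sets, the 3 highest of each group, the 5 largest rises and falls within each set, all CCaMK genes, Os08g0540400 and the 5 largest differences between sets. Genes that illustrate steady, set-dependent, transcript-dependent or near-threshold levels, and the pathway genes called over both sets, were picked after their values were seen. The members and lists were chosen with earlier results of these data known, and the NADPH oxidase pattern was corrected after its matches were seen. Alternatives were another pseudocount, 2 other filters, 2 scalings, no trend, sums over transcripts, no covariate, averaged pairs, leaving out each library, and, added after seeing the data, a replicate block and a 2-fold rule by FPKM ratio. Protein and promoter sequences were not analysed here.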

Additional observations from a re-analysis of the deposited data

Results flagged for a closer look

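The effect of ROX differed between the Root and Set libraries for 17 of the 48 genes tested (interaction term, limma adjusted p under 0.05). Over all genes tested, 10.7% had a difference above 0 and 10.8% one below 0 at the same limit, so such differences were not particular to the kinase genes. Values below are the log2 effect in Root minus that in Set. A positive value means a higher signed effect in Root, not always one of larger size. Os07g0637000, with a positive value, had 0.071 in Root and -0.49 in Set libraries. Os12g0603700, with a negative value, had -1.24 in Root and 0.19 in Set libraries. Among CDPK genes the difference was 1.64 for Os08g0540400, 0.89 for Os03g0788500, 0.53 for Os02g0126400, 0.52 for Os07g0568600, 0.50 for Os05g0585500, 0.48 for Os04g0584600, 0.48 for Os03g0789000 and 0.37 for Os07g0409900. Os03g0789000 had only 0.316 to 0.515 FPKM in Set libraries, where it was not tested alone. It reached the minimum of 0.5 FPKM only through its Root libraries, so that its difference carries no weight. Among CIPK genes it was 1.24 for Os07g0678300, 0.92 for Os05g0476350, 0.76 for Os09g0418000, 0.72 for Os03g0126800, 0.56 for Os07g0637000, -0.50 for Os03g0319400 and -1.43 for Os12g0603700. In the CCaMK group it was 0.58 for Os03g0148700 and -0.40 for Os07g0641200. What separates the sets besides their column names is not given, and its part in these differences was not tested.

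Leaving out 1 library lost several of these calls by limma. For Os02g0126400 the adjusted p was 0.0591 to 0.089 without any Root library and 0.0537 without Set NT 1. For Os09g0418000 it was 0.0557 to 0.102 without any Root library and 0.0579 without Set NT 2. For Os07g0641200 it was 0.102 to 0.139 without any Root library, 0.0733 without Set ROX 2 and 0.0685 without Set NT 1. For Os07g0409900 it was 0.108 to 0.165 without any Root library, 0.0869 without Set ROX 1 and 0.102 without Set NT 1. For Os03g0319400 it was 0.0571 to 0.163 without any of the 8 libraries, and for Os07g0637000 it was 0.0576 without Root NT 2. Other settings also ended calls by limma. For Os03g0148700 the adjusted p was 0.0569 with no filter on low values and 0.062 with quantile normalization. For Os07g0409900 it was 0.0602 and 0.0587 under the same settings and 0.0704 without a variance trend, and for Os07g0641200 it was 0.0532 without the trend. For Os03g0319400 it was 0.0799 with a pseudocount of 0.1, 0.0717 with no filter and 0.0523 with quantile normalization. Of 96 groups of 4 libraries checked for a library far from the other 3, 0 were found.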

How the results depend on the processing

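Over both sets, 1 gene was called higher and 2 lower. The count called higher was 0 with no filter on low values, 0 with limma without trend, 0 with no set covariate, 0 with pairs averaged and 2 with median ratio scaling, and 0 to 2 when 1 library was left out. The count called lower was 0 with no set covariate and 0 with pairs averaged, and 0 to 2 when 1 library was left out. Os08g0540400 had a limma adjusted p of 0.069 without the filter, 0.053 with median ratio scaling and 0.0507 without trend. With pairs averaged, *OsERF48* kept a log2 fold change of 2.95 at an adjusted p of 0.536. By FPKM ratio, chosen after seeing the data, 4 genes in Root and 1 in Set libraries were 2-fold higher, against 2 and 0 on the log2 scale. Of these, Os01g0206300 in Root and Os08g0540400 in Set reached the minimum of 0.5 FPKM only through ROX libraries. At a minimum mean of 5 FPKM, 0 genes were higher at 2-fold, since Os08g0540400 was not tested. With the column number as a replicate block, chosen after seeing the data, 0 genes were called higher and 0 lower over both sets (8 at an unadjusted p under 0.05, against 20.4% of all genes), against 20 and 9 in Root and 0 and 0 in Set libraries. Deviations of same-numbered libraries correlated at 0.0238 in Root and 0.257 in Set, and these numbers are not the labels' replicate numbers. Set names give 1 ROX and 1 NT library the same number, but whether it pairs them is not given. The difference between sets was above 0 for 7 to 15 genes and below 0 for 1 to 3 when 1 library was left out. Of 1346 alternative values for named genes, 1227 kept direction and side of the threshold, 80 lost and 11 gained a call, and 28 changed sign, none of them from a called estimate. Over both sets these were Os02g0126400 (0.035 with median ratio scaling, -0.076 to 0.088 when 1 library was left out) and Os03g0148700 (-0.18 to 0.0097). In Root they were Os03g0128700 (-0.0041 with quantile normalization, -0.0056 to 0.045) and Os03g0319400 (0.023 with quantile normalization, 0.024 with median ratio scaling, -0.12 to 0.076). In Set they were Os04g0584600 (0.0034 with median ratio scaling, -0.038 to 0.0061), Os05g0489900 (-0.11 to 0.46), Os03g0788500 (-0.041 to 0.15) and Os07g0678300 (-0.33 to 0.073). For the difference between sets they were Os01g0292200 (0.023 with quantile normalization, 0.01 with median ratio scaling, -0.036 to 0.021), Os05g0489900 (-0.33 to 0.24) and Os10g0539600 (-0.037 to 0.18). The cause of these changes was not tested. Where 1 library of a pair was left out, the other was assumed to vary like the remaining pairs. With 2 libraries per genotype in a set, exact permutation cannot go below p = 0.333, and FPKM without deposited counts allowed no count model.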
